A study of Mus musculus with 2 samples.

Results

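Mitochondrial ribosomal proteins were followed through all islet cells of WT mice and of mice lacking the ghrelin gene (GKO). The family was taken from the feature table as every gene whose symbol consists of Mrpl or Mrps, a number and at most a trailing letter, which gave 77 of 27998 genes. Of these, 48 carry the symbol Mrpl, for the large subunit, and 29 the symbol Mrps, for the small subunit. All 77 had UMIs (counted mRNA molecules) in both libraries, 431788 in WT and 332346 in GKO.

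The cells came from handpicked islets of 8-week-old C57BL/6N littermates fed standard chow, either Wildtype or Ghrelin knockout, a germline deletion present in every tissue. The pancreases of 4 mice per genotype were pooled, dispersed and sorted for viable cells by FACS, and each pool became 1 droplet 3′ library. With 1 library per genotype a difference between genotypes cannot be told apart from a difference between libraries. No test was therefore run, and the 95% intervals given (exact, from the counts) cover counting error only.

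Mitochondria hold their own ribosomes, which translate the few proteins encoded by mitochondrial DNA, all of them core subunits of the respiratory chain and of ATP synthase. The RNA of these ribosomes is mitochondrial, but each of their proteins is encoded in the nucleus, made in the cytosol and imported. In β cells, oxidative phosphorylation supplies the ATP that couples glucose to insulin release.

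Only barcodes that showed 500 genes or more, and no more than 10% of UMIs from mitochondrial genes, were used, 7100 in WT and 6346 in GKO, with median totals of 15412 and 11404 UMIs. They were divided by the hormone that led their transcripts, where it made up at least 10% of the UMIs. This left 2265 WT and 872 GKO insulin-led barcodes, 1048 and 1397 glucagon-led, 1414 and 1003 somatostatin-led, 717 and 669 PP-led and 1656 and 2405 nonendocrine barcodes. Each of the β, α and δ cell marker lists, without the hormones, summed highest in the class of its hormone in both libraries, and each of 8 lists for other cell types was highest in the nonendocrine class. The γ cell list held 1 gene beside Ppy, which was highest in the PP-led class. Ghrl itself had 43634 UMIs in WT and 280 in GKO, in the direction of the labels. The libraries shared 18 barcode sequences, and hormone UMIs made up 2.39% (WT) and 1.95% (GKO) of the nonendocrine class, so some free or doublet RNA was present.

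Promoters of 5 members are printed because these genes carry the results that follow: Mrps33 is the most abundant member, Mrps12 differed most between insulin-led and nonendocrine barcodes, Mrpl52 and Mrps21 were lower and Mrpl27 was higher in GKO in every class. The sequences are RefSeq promoters (GRCm38.p6), 250 bases before to 50 after the start, 5′ to 3′ on the gene's strand. Capitals mark CCGGAAG, the core bound by ETS factors, or AAGATGG, the core bound by YY1, on either strand. In order they lie at chr6:39810887-39811186 (minus strand), chr7:28741772-28742071 (minus), chr14:54426659-54426958 (plus), chr3:95871465-95871764 (minus) and chr11:94653541-94653840 (plus).
Mrps33: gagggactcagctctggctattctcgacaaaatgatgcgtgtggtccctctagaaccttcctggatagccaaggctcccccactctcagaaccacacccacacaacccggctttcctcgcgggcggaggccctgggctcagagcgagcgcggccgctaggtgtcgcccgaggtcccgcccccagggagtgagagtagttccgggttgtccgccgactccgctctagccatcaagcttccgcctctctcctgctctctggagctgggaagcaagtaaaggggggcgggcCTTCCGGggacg
Mrps12: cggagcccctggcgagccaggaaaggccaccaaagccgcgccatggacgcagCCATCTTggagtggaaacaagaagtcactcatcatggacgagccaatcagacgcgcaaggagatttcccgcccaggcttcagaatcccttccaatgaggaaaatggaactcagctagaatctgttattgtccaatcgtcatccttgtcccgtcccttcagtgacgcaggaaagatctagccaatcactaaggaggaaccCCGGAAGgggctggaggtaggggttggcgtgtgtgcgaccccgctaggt
Mrpl52: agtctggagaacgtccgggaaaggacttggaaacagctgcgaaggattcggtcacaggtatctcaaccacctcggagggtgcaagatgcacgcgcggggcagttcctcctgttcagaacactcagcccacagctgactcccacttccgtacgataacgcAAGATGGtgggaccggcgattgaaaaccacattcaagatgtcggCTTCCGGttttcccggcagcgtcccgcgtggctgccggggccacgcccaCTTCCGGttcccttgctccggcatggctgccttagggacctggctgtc
Mrps21: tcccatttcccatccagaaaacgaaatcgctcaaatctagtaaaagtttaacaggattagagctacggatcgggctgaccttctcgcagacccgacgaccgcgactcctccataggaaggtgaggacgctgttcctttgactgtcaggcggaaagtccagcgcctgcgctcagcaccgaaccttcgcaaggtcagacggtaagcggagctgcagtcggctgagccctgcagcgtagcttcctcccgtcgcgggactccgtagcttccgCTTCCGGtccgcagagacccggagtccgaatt
Mrpl27: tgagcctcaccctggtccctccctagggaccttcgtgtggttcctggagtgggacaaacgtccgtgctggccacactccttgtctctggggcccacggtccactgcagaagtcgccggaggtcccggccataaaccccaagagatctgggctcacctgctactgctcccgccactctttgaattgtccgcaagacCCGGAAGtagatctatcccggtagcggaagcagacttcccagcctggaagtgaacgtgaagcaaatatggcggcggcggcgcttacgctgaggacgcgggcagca

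These letters were common in the family as a whole. RefSeq held 74 promoters for 68 members and none for 9 (Mrpl4, Mrpl13, Mrpl15, Mrpl19, Mrpl38, Mrpl54, Mrps28, Mrps34 and Mrps35). CCGGAAG occurred in 25 of the 74 (33.8%), against 8.86% of all 32851 promoters and 18.1% of the 10559 promoters of genes with at least 200 UMIs in the insulin-led class. GCGCATGC, the core bound by NRF1, a regulator of mitochondrial genes, occurred in 8 (10.8%), against 2.71% of all and 5.47% of expressed promoters. AAGATGG occurred in 13 (17.6%), against 6.34% and 7.39%. At least 1 of the 3 cores stood in 37 of the 74, or 50.0%, against 16.6% of all promoters, 27.9% of expressed ones, 42.3% of those of the nuclear-encoded respiratory chain and 53.3% of those of cytosolic ribosomal proteins. TATAAA was found in 5 (6.76%), against 13.6% of all and 6.87% of expressed promoters. The Mrpl52 promoter held 3 matches, 1 of AAGATGG and 2 of CCGGAAG, the last of them next to the start site. These are letter matches and were not tested as binding sites.

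Outside 5 hormone genes, the family took a similar share of transcripts in the insulin-led and somatostatin-led classes and a smaller one in the others. This order depended on the total (below). Levels are counts of UMIs per 1000000 UMIs outside the 5 hormone genes (CPM; Ins1, Ins2, Gcg, Sst and Ppy left out), since hormone transcripts alone made up 61.3% of the insulin-led UMIs in WT and only 2.39% of the nonendocrine ones. In insulin-led barcodes the summed level was 5292 (interval 5268 to 5317) in WT and 5377 (5338 to 5417) in GKO. In somatostatin-led barcodes it was 5337 (5297 to 5377) and 5365 (5316 to 5414). These 2 classes were the highest, and their intervals overlapped within each library. Glucagon-led barcodes followed with 4880 (4838 to 4923) and 5003 (4965 to 5041). The level was 4553 (4513 to 4593) and 4642 (4600 to 4685) in PP-led barcodes. Nonendocrine barcodes were lowest with 4283 (4252 to 4314) and 4289 (4261 to 4316). The lower 3 classes were apart by more than counting error in both libraries. Against the insulin-led class, the median member had log2 ratios of -0.15 (WT) and -0.103 (GKO) in PP-led barcodes, beside -0.194 and -0.172 for all genes compared. In nonendocrine barcodes it had -0.196 and -0.18, beside -0.182 and -0.188. In these 2 classes the median member was thus close to or above the median gene. In glucagon-led barcodes it was below, with -0.115 and -0.0448 beside 0.0133 and 0.068. In somatostatin-led ones it had 0.0504 and 0.0754, beside 0.103 and 0.119.

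The order depended on the total. Over all UMIs, hormones included, the insulin-led class was the lowest of the 5, with 2050 in WT and 2195 in GKO, and the nonendocrine class the highest, with 4180 and 4205. A narrower total also left out the UMIs of mitochondrially encoded genes and of cytosolic ribosomal proteins, while the family stayed in. With it the insulin-, glucagon- and somatostatin-led classes lay together between 6363 and 6492. The PP-led class (5385 and 5438) and the nonendocrine class (5245 and 5199) remained below them. The PP-led class was thus below the insulin-led class with both totals that leave out the 5 hormone genes. The lower level of the glucagon-led class did not hold with the narrower total. Both totals still count Pyy, the other gene of the γ cell list. It made up 188000 CPM in WT and 184000 in GKO PP-led barcodes, against 12200 and 11400 in insulin-led ones. Leaving Pyy out would raise the PP-led level more than the insulin-led one. Such a total was not tried, so a low family level in PP-led barcodes is not shown apart from Pyy. The β cell list, whose genes include Iapp, is counted too, with 106000 CPM in WT and 103000 in GKO insulin-led barcodes. It made up 35900 and 39600 in somatostatin-led and 3370 and 2630 in nonendocrine ones. A total without this list was not tried, so levels beside the insulin-led class are given only for totals that include it.

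**Figure D1:**
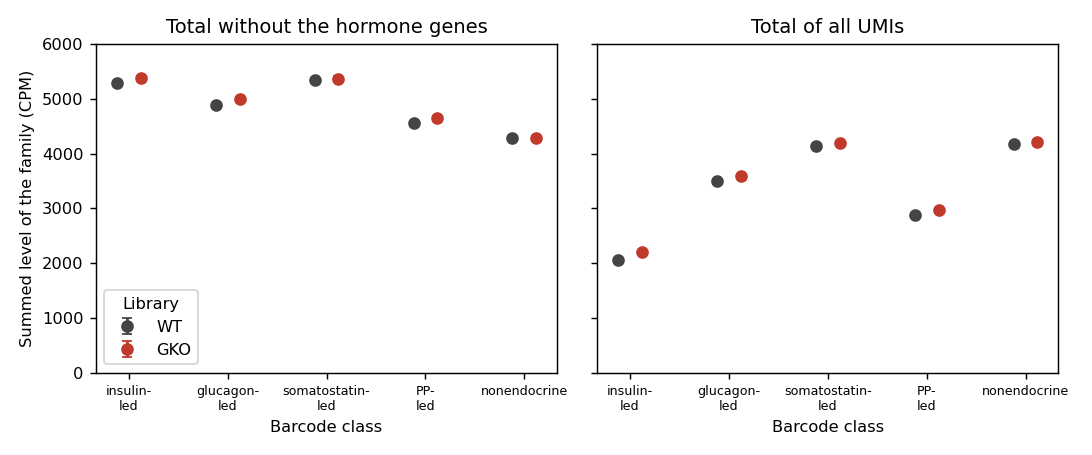
Summed UMIs of the 77 mitochondrial ribosomal protein genes in CPM, by barcode class, for the WT (grey) and GKO (red) libraries. The left plot uses the total without the hormone genes, with 95% counting intervals (mostly smaller than the points), and the right plot the total of all UMIs. The 2 libraries lie close together in every class, and the insulin-led class goes from among the highest on the left to the lowest on the right.

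Every barcode deep enough to be examined carried these transcripts. Among barcodes with at least 2000 non-hormone UMIs, none lacked a member UMI in any class of either library. Shallower barcodes were not examined, 35 in WT and 103 in GKO of the nonendocrine class and at most 5 in any other class. The median insulin-led barcode had a level of 5198 in WT, with quartiles of 4584 and 5883, and of 5354 in GKO (4711 and 5988). The nonendocrine barcodes were spread more widely, with quartiles of 3153 and 4985 around a median of 4005 in WT and of 3281 and 5194 around 4195 in GKO. Within the insulin-led class the level was 5194 in WT barcodes with an insulin share of 25 to 60% and 5385 above 60%, and 5271 and 5524 in GKO.

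The classes also differed in the ratio of the large-subunit to the small-subunit sum, both taken by symbol. Large-subunit symbols summed to 3160 and small-subunit symbols to 2133 CPM in WT insulin-led barcodes, a ratio of 1.48, and to a ratio of 1.45 in GKO. The ratio was 1.65 and 1.62 in glucagon-led, 1.63 and 1.61 in somatostatin-led and 1.62 and 1.60 in PP-led barcodes. It was highest in nonendocrine barcodes, with 1.76 and 1.73. The order of the classes at both ends was the same in both libraries. Abundant small-subunit members were higher in insulin-led than in nonendocrine WT barcodes: Mrps33 (284 against 126 CPM), Mrps12 (221 against 81.9) and Mrps21 (207 against 119). Their part in the ratio was not separated, so it does not describe the subunits as a whole. The small-subunit symbols also include Mrps18a and Mrps36, whose products are placed elsewhere (below).

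Other parts of the same machinery followed the family across classes to different degrees. Levels here are over non-hormone UMIs. Relative to insulin-led barcodes of the same library, nonendocrine barcodes had a lower family level by log2 -0.31 in WT and -0.33 in GKO. On this scale mitochondrially encoded messenger RNAs were lower by far more, -1.14 and -1.11. The nuclear-encoded respiratory chain genes stood at -0.56 and -0.57. Cytosolic ribosomal proteins went the other way, with 0.57 and 0.59. In glucagon-led barcodes the respiratory chain genes (-0.13 and -0.14) were close to the family (-0.12 and -0.10), beside -0.34 and -0.30 for the mitochondrially encoded messenger RNAs and 0.78 and 0.73 for cytosolic ribosomal proteins. In PP-led barcodes, with Pyy in the total, the family stood at -0.22 and -0.21 and the respiratory chain genes at -0.43 and -0.41. The mitochondrially encoded messenger RNAs stood at -0.91 and -0.86 there and cytosolic ribosomal proteins at 0.18 and 0.16. Somatostatin-led barcodes had the family at 0.01 and -0.0033 beside insulin-led ones, the respiratory chain genes at -0.18 and -0.16 and the mitochondrially encoded messenger RNAs at -1.03 and -0.94. Over all UMIs, family levels were higher in nonendocrine than insulin-led WT barcodes (4180 against 2050 CPM). The other groups were not compared on that total, and their signs may depend on it. The barcode filter took mitochondrial UMIs as a share of all UMIs. Hormones made up 61.3% of insulin-led and 2.39% of nonendocrine WT UMIs. The filter thus allowed insulin-led barcodes a larger mitochondrial share of non-hormone UMIs. Its part in the messenger RNA ratios was not tested.

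Among the members, levels ranged widely. UMIs were counted once per molecule at the 3′ end, so gene levels on this scale need no division by transcript length. Over all kept barcodes the median member had 55.6 CPM, with quartiles of 34.3 and 79.2, and the 5 most abundant made up 17.3% of the family. Mrps33 led with 233 CPM, from 20403 WT and 15234 GKO UMIs. Mrps21 followed with 157, and Mrps12, the counterpart of the bacterial protein S12 near the decoding site, with 156. Mrpl52 had 155 and Mrpl33 146 CPM, and Mrpl33 shares exon sequence on its strand with a predicted gene (Gm43809). At the other end, Mrpl47 had 13.9, Mrpl37 13 (1135 WT and 847 GKO UMIs), Mrps2 10.3 and Mrps27 7.65 CPM. Mrpl53 was almost silent with 0.80 CPM, 81 UMIs in WT and 41 in GKO, and it shares exon sequence on its strand with a predicted gene (Gm42688), so its count is uncertain.

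Levels of most members differed by less than 2-fold between classes. Setting Mrpl53 aside, the highest class exceeded the lowest by a median of 1.40-fold, and by at least 2-fold in 8 members. The highest and lowest class were the same in both libraries for 46 of 77 members. Nonendocrine barcodes were lowest in both libraries for 38 members. The highest class was the somatostatin-led one in both libraries for 20 members, the insulin-led one for 18 and the nonendocrine one for 7. These ranges and counts were not taken over all genes, so they are not shown to be particular to the family. The median of all genes was also lower in nonendocrine than in insulin-led barcodes (log2 -0.182 in WT and -0.188 in GKO). Mrpl43 was the steadiest, between 61.2 and 75.3 CPM in the 10 classes of the 2 libraries, and its highest class exceeded its lowest 1.11-fold.

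Mrps12 was highest in the insulin-led class and lowest in the nonendocrine class. Its level was 221 CPM in WT and 243 in GKO insulin-led barcodes. In the other hormone-led classes it lay between 143 and 157 in both libraries. Nonendocrine barcodes had 81.9 and 77.6, and its level in the endothelial, stellate, mural, macrophage and ductal groups described later was at most 114. The B cell group had 138 in WT and 84.4 in GKO. Its gene lies at chr7:28739641-28741820 on the minus strand (mm10).

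Mrps6, which encodes the counterpart of the bacterial small-subunit protein S6, was highest in somatostatin-led barcodes with 52.9 CPM in WT and 48.2 in GKO. The insulin-led class had 18.4 and 15.5, the lowest of the 5, for a 2.98-fold range over the classes. Mural-marker barcodes (pericytes and smooth muscle) held 101 and 102 CPM, above every hormone-led class. Mrps6 overlaps exons of the inositol transporter gene Slc5a3 on the same strand, and reads of the 2 genes may have been divided between them, so its pattern is uncertain.

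Mrpl12, the counterpart of the bacterial stalk protein L7/L12, was highest in nonendocrine barcodes, with 81.5 CPM in WT and 69.8 in GKO, and lowest in PP-led ones, with 36.4 and 34.9. Mrpl36 was highest in somatostatin-led (138 and 154) and lowest in nonendocrine barcodes (68.6 and 69.1). Mrpl1, the counterpart of bacterial L1, was highest in glucagon-led (44.3 and 46.4) and lowest in nonendocrine barcodes (20.9 and 22.4). For each of these 3 genes both libraries placed the same classes at the ends. Mrps14 was highest in insulin-led (156 and 169) and lowest in glucagon-led barcodes (83.8 and 90.1).

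**Figure D2:**
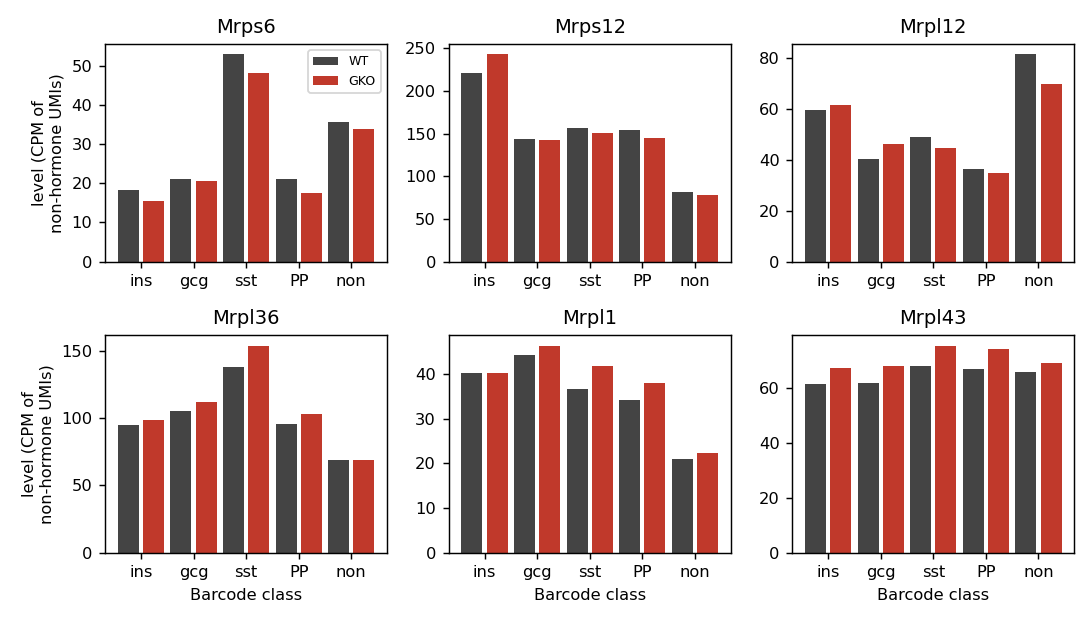
Level of 6 members in CPM of non-hormone UMIs (bars start at 0) in insulin-led (ins), glucagon-led (gcg), somatostatin-led (sst), PP-led (PP) and nonendocrine (non) barcodes, WT in grey and GKO in red. The first 5 genes have the largest range between classes with the same highest and lowest class in both libraries, and Mrpl43 has the smallest range. The pairs of bars differ less between libraries than the classes do in the first 5 genes.

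Members past 1.2-fold against the insulin-led class in both libraries were a smaller share than among all genes, in every class and direction. Glucagon-led barcodes were higher in 10 of 75 members (all genes 24.2%) and lower in 14 (all genes 21.3%). Somatostatin-led barcodes were higher in 11 (all genes 29.4%) and lower in 8 (17.4%). PP-led barcodes, with Pyy in the total, were higher in 5 (15.4%) and lower in 20 (38.3%). Nonendocrine barcodes were higher in 7 of 76 (27.1%) and lower in 29 (42.0%). The members highest above the insulin-led class were Mrpl38 in glucagon-led and PP-led and Mrps6 in somatostatin-led and nonendocrine barcodes.

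The proteins that answer to one bacterial ancestor showed that symbols can mislead. Bacterial S18 has 3 counterparts in mitochondria, of which the Mrps18c and Mrps18b products sit in the small subunit and the Mrps18a product in the large subunit despite its symbol. Mrps18a was the most abundant of them in every class of both libraries, with 82.7 CPM in insulin-led barcodes of both. Mrps18c had 65.7 and 64.7 there and Mrps18b 47.8 and 48.7. In nonendocrine barcodes Mrps18b was down to 28.2 and 28.7, while Mrps18a had 62.3 and 68.1. Mrps18c had 61.1 and 54.3 there, close to Mrps18a in WT. Mrps18c shares exon sequence on its strand with a predicted gene (Gm43511), so its count and its rank below Mrps18a are uncertain. Mrps36, whose product is now placed in the oxoglutarate dehydrogenase complex of the citric acid cycle, had levels between 58.3 and 80.8 CPM over the classes, within the range of true ribosomal proteins.

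Between genotypes the family as a whole differed very little. The log2 ratio of the summed level, GKO over WT, was 0.02 (interval 0.01 to 0.04) in insulin-led, 0.04 (0.02 to 0.05) in glucagon-led and 0.03 (0.01 to 0.05) in PP-led barcodes. It was 0.01 (-0.01 to 0.02) in somatostatin-led and 0.00 (-0.01 to 0.02) in nonendocrine barcodes. The 3 ratios above 0 by counting error kept a positive sign with all UMIs and with the narrower total, but not all of them with another scaling. With the narrower total they were 0.0156 in insulin-led, 0.00606 in glucagon-led and 0.014 in PP-led barcodes. No intervals were computed for these alternatives. With TMM scaling, which moved all genes of a class by between -0.05 and 0.02, the glucagon-led ratio was -0.01, the PP-led ratio -0.01 and the insulin-led ratio 0.00.

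The median member had a log2 ratio of 0.01 in insulin-led, 0.07 in glucagon-led, 0.01 in somatostatin-led, 0.03 in PP-led and 0.01 in nonendocrine barcodes. Over all genes with at least 200 UMIs the medians were 0.01, 0.05, 0.03, 0.03 and 0.00. Genes of similar expression, between the 5th and 95th percentile of the members' levels, had medians of 0.01, 0.06, 0.03, 0.04 and 0.00. The members were also packed more tightly than those genes. Their standard deviation was 0.13 against 0.25 in insulin-led, 0.13 against 0.23 in glucagon-led and 0.14 against 0.20 in somatostatin-led barcodes. In PP-led barcodes it was 0.15 against 0.21, and in nonendocrine barcodes 0.13 against 0.43. Those genes share the range of the members' levels, not their distribution, so counting error may differ between the spreads. The mix of nonendocrine cells also differed between libraries, with 268 WT and 597 GKO stellate and fibroblast-marker barcodes. The part of either in the spreads was not tested.

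Few members passed 1.2-fold. Mrpl53 had under 200 UMIs in every class and Mrps27 in the glucagon-, somatostatin- and PP-led classes, which left 75 or 76 members. In insulin-led barcodes 1 member was higher (all genes 7.10%) and 2 lower (8.22%). In glucagon-led barcodes 2 were higher (11%) and 1 lower (6.08%). In somatostatin-led barcodes the counts were 2 (8.21%) and 1 (7.59%), and in PP-led barcodes 3 (8.39%) and 2 (6.32%). In nonendocrine barcodes none was higher (18.5%) and 4 were lower (15.4%). With this scaling, these shares were below those of all genes in every class and direction, and below those of genes of similar level, which lay between 4.09% and 16.7%.

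**Figure D3:**
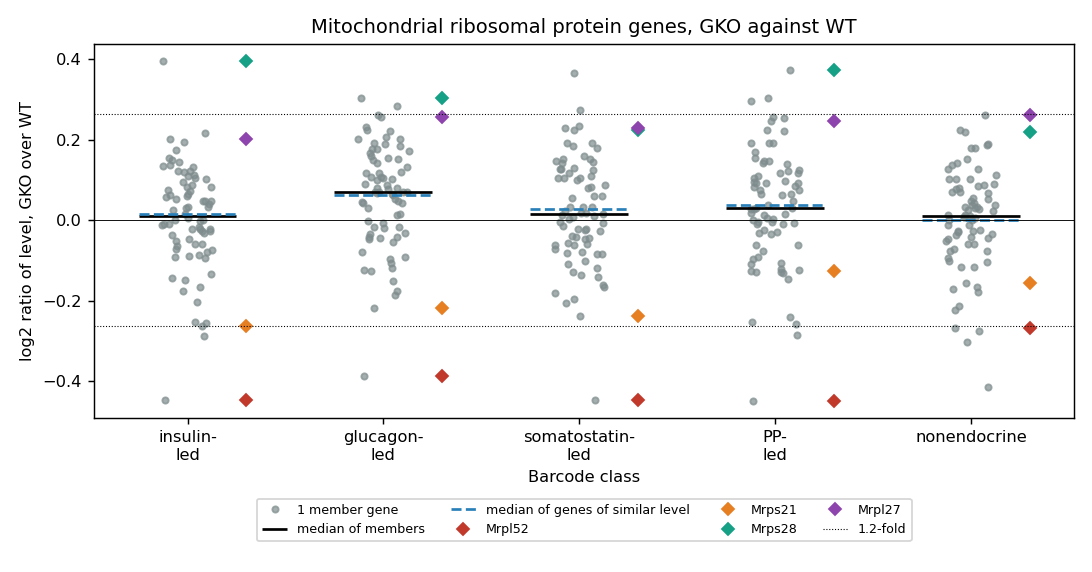
log2 ratio of level, GKO over WT, of each member with at least 200 UMIs in each barcode class (grey points, spread sideways for legibility), with 4 members repeated as coloured diamonds. Black lines are the members' medians, dashed lines the medians of genes of similar level, and dotted lines mark 1.2-fold. Mrpl52 lies below the lower dotted line in each class, and Mrps28 and Mrpl27 lie above 0 in each.

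Mrpl52, a large-subunit protein without a bacterial counterpart, had the lowest ratio of the members with enough UMIs in each hormone-led class. Its level was 146 CPM in WT and 107 in GKO insulin-led barcodes, 210 and 160 in glucagon-led, 212 and 155 in somatostatin-led, 169 and 124 in PP-led and 163 and 135 in nonendocrine ones. It was lower in GKO in all 5 classes, and it was the single member past 1.2-fold in all of them. The nonendocrine ratio lay just beyond that limit (0.263 on the log2 scale) and was inside it, at -0.262 with all UMIs, -0.252 with TMM scaling, -0.233 with no barcode filter and -0.211 without 2-hormone and deepest barcodes. The log2 ratios were -0.45 (interval -0.53 to -0.36), -0.39 (-0.47 to -0.30), -0.45 (-0.54 to -0.35), -0.45 (-0.55 to -0.34) and -0.27 (-0.34 to -0.19) in that order. Of all 7703 genes with 200 UMIs in every class, 1.16% were lower past 1.2-fold in all 5. The members' share, 1 of 75, was near this. Higher past 1.2-fold in all 5 were 0.234% of all genes and no member.

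Mrps21 was lower as well, with 207 CPM in WT and 172 in GKO insulin-led barcodes. It had 189 and 163 in glucagon-led and 177 and 150 in somatostatin-led barcodes, and 121 and 111 in PP-led and 119 and 107 in nonendocrine ones. Its log2 ratios lay between -0.26 and -0.13, and every interval was below 0. Bacterial S21 is its counterpart.

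Mrpl52 and Mrps21 have the 2 shortest messenger RNAs of the family, with a median annotated length of 440.5 and 446.5 nt against a family median of 1223 nt. The next members by length went different ways. Mrpl33 (478 nt) was lower in GKO in all 5 classes, while Mrpl20 (494 nt) had intervals above 0 in insulin-, glucagon- and PP-led barcodes. Genes of similar level with at most 500 nt that are not members (22 to 31 a class) had median log2 ratios of -0.223 in insulin-led, -0.165 in glucagon-led, -0.175 in somatostatin-led, -0.186 in PP-led and -0.257 in nonendocrine barcodes. Cytosolic ribosomal protein genes of at most 700 nt had medians between -0.28 and -0.15, and those of over 700 and up to 1500 nt between -0.06 and 0.03. The 12 members of at most 700 nt had medians between -0.06 and -0.0047, and the 36 members of over 700 and up to 1500 nt between 0.02 and 0.11. Over all members the rank correlation of length and ratio was between -0.185 and 0.077 in the 5 classes, a description over genes that share both libraries. The part of transcript length in the 2 genes' ratios was not tested.

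Mrps28 was the member most above WT in 3 classes. It had 62.8 CPM in WT and 82.6 in GKO insulin-led barcodes, a log2 ratio of 0.40 (interval 0.29 to 0.50). The levels were 51.4 and 63.4 in glucagon-led, 52.1 and 60.8 in somatostatin-led, 48.2 and 62.3 in PP-led and 40.4 and 47.1 in nonendocrine barcodes, and all 5 intervals of the ratio were above 0. Its messenger RNA has 783 nt, and its gene lies at chr3:8802146-8923918 on the minus strand.

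Mrpl27, the counterpart of bacterial L27 at the peptidyl transferase center, was also higher in every class. Its level was 54.6 and 62.7 in insulin-led, 44.2 and 52.8 in glucagon-led and 64.5 and 75.5 in somatostatin-led barcodes. It was 44.5 and 52.8 in PP-led and 49.2 and 59.0 in nonendocrine ones. The log2 ratios lay between 0.20 and 0.26, just inside 1.2-fold, with every interval above 0.

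In all, 14 of 75 members were higher in GKO in all 5 classes (all genes 15.3%) and 8 were lower in all 5 (all genes 9.52%), and 53 were mixed. The 14 included Mrps18a and Mrps18b, Mrps14, Mrps15, Mrpl36 and Mrpl43, and the 8 included Mrpl33, Mrpl34, Mrpl45, Mrpl28, Mrps5 and Mrps6. The 5 classes of a library share its preparation, so they do not repeat the comparison of genotypes independently.

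The other members with the largest ratios of a class are given by class. In insulin-led barcodes Mrps34 had 84.7 CPM in WT and 98.4 in GKO, and Mrps2 12.6 and 10.3, with an interval of the log2 ratio from -0.58 to -0.01. In glucagon-led barcodes Mrpl11 had 52.3 and 63.7, Mrps15 49.4 and 59.1 and Mrpl35 38.4 and 33.8, the last with an interval of the ratio that held 0 (-0.38 to 0.01). In somatostatin-led barcodes Mrpl19 had 27.1 and 32.7, Mrpl51 94.8 and 111 and Mrps5 50.2 and 43.5. Mrps2 had the highest ratio there, 0.36, from 113 and 96 UMIs, and its interval held 0 (-0.04 to 0.77). In PP-led barcodes Mrps18b had 35.1 and 43.1, with an interval of the ratio from 0.09 to 0.50. Mrpl37 (9.91 and 12.2), Mrpl45 (20.3 and 16.6) and Mrps6 (21.1 and 17.6) had intervals that held 0 there.

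Counting intervals of the genotype ratio excluded 0 for 22 members in insulin-led barcodes, which is 28.9% of the members with enough UMIs, against 30.7% of all genes. They did so for 20 members in glucagon-led (26.7% against 28.6%), 14 in somatostatin-led (18.7% against 25.5%) and 13 in PP-led barcodes (17.3% against 23.4%). In nonendocrine barcodes the count was 20, or 26.3% against 48.6%. The members' share was thus close to that of all genes in insulin-led and glucagon-led barcodes and below it in the other classes.

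Both subunits had sums close to WT. The sum over large-subunit symbols had log2 ratios between -0.01 and 0.03 over the classes and that over small-subunit symbols between 0.02 and 0.05.

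The other gene groups of this machinery shifted further than the family, and in different directions. Cytosolic ribosomal proteins summed to lower levels in GKO in every class, with log2 ratios between -0.20 and -0.09. Of 81, 19 to 26 were lower past 1.2-fold while none was higher. The 35 of at most 700 nt had medians between -0.28 and -0.15, and the 39 of over 700 and up to 1500 nt between -0.06 and 0.03. The lower levels were thus not shared evenly by the group, and the part of length was not tested. Nuclear-encoded respiratory chain genes summed to between -0.11 and -0.07, with medians between -0.03 and 0.01. Of 76 to 78 of them, 12 to 16 were lower past 1.2-fold in each class and at most 2 higher. Of all genes, 6.08% to 15.4% were lower past 1.2-fold in a class and 7.10% to 18.5% higher. The 13 mitochondrially encoded messenger RNAs summed to higher levels, between 0.10 and 0.19. In each class, however, 2 to 4 of the 13 were lower past 1.2-fold and at most 1 was higher. Among them mt-Nd3, a subunit of complex I, was lower in all 5 classes (686 and 452 CPM in insulin-led barcodes). The directions of these 3 sums were the same with all UMIs, with the narrower total and with TMM. The share of mitochondrial UMIs, which moved with them, was 7.50% in WT and 8.02% in GKO insulin-led barcodes, and the part of RNA quality was not tested.

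**Figure D4:**
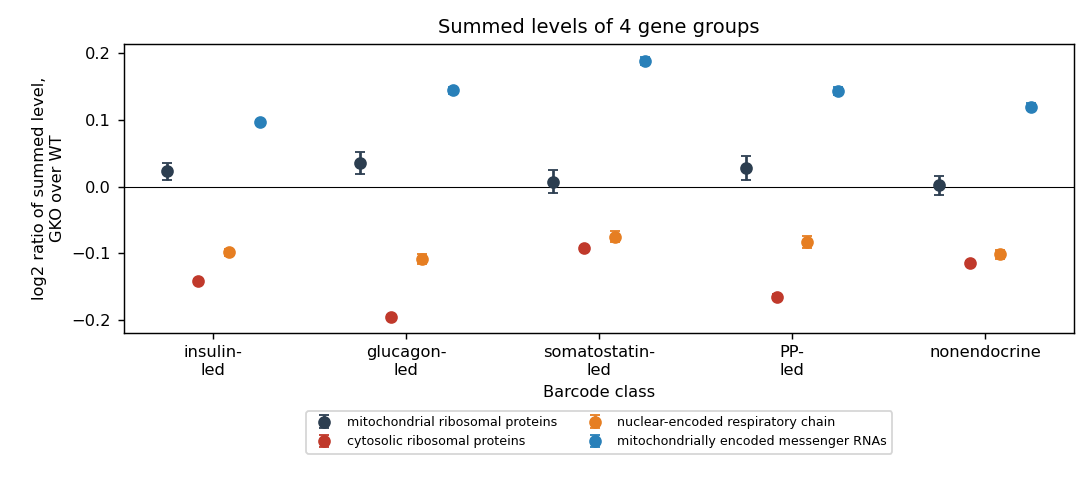
log2 ratio of the summed level, GKO over WT, of 4 gene groups in each barcode class, with 95% counting intervals. Mitochondrial ribosomal proteins stay between 0.00 and 0.04, above the cytosolic ribosomal proteins and the nuclear-encoded respiratory chain (all below 0) and below the mitochondrially encoded messenger RNAs (all above 0).

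Among the smaller lists, values are given for the insulin-led class. The 5 mitochondrial ribosomal proteins with other symbols summed to 436 CPM in WT and 464 in GKO, a log2 ratio of 0.09 (0.05 to 0.13), with none past 1.2-fold, from 0.04 for Aurkaip1 to 0.13 for Chchd1. Of 10 translation factors, Gfm1, an elongation factor that moves the ribosome along, was highest (12.4 and 14.9 CPM) and Tufm, the factor that delivers aminoacyl-tRNA, lowest (16.3 and 12.2, log2 ratio -0.42, interval -0.68 to -0.16). Its log2 ratio was also negative in the other classes, at -0.46 in glucagon-led, -0.33 in somatostatin-led, -0.12 in PP-led and -0.24 in nonendocrine barcodes. Among 18 assembly and rRNA modification factors, Malsu1, which keeps the subunits apart during assembly, had 35.8 and 43.0 CPM and Ybey, an rRNA maturation endonuclease, 8.49 and 6.42. Of 9 genes of mitochondrial DNA upkeep and transcription, 4 were lower past 1.2-fold (all genes 8.22%), and their sum had a log2 ratio of -0.07. Mterf1a was lowest at 11.8 and 6.94 (log2 ratio -0.76, interval -1.10 to -0.43). Lower past 1.2-fold in this list were 1 of 7 in glucagon-led, 2 of 7 in somatostatin-led, 1 of 8 in PP-led and 2 of 8 in nonendocrine barcodes. Of 14 aminoacyl-tRNA synthetases with enough UMIs, 2 were higher (all genes 7.10%) and none was lower (8.22%), and Hars2 had 16.2 and 13.9. Of 4 genes of membrane insertion, Letm1, which also carries ions across the inner membrane, had 33.2 and 40.2 and Oxa1l, the insertase for new chains, 23.0 and 23.4.

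The nonendocrine class joined cells of unlike level. Barcodes were grouped by the marker list with at least 10 UMIs, at least 3 detected markers and at least 2 times the UMIs of the next list. Macrophage-marker barcodes (201 in WT and 453 in GKO) had family levels of 3074 and 3306 CPM. Endothelial-marker barcodes (576 and 433) had 3805 and 3911, and stellate and fibroblast-marker barcodes (268 and 597) 4304 and 4487. Mural-marker barcodes (187 and 365) had 4959 and 5016, and ductal-marker barcodes (58 and 78) 5313 (5184 to 5444) and 5127 (5007 to 5250). The ductal interval overlapped that of the insulin-led class in WT and lay below it in GKO. Neutrophil-marker barcodes were lowest with 2392 and 2057, from 5 and 34 barcodes. Macrophages, endothelial, stellate and mural groups kept this order in both libraries.

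The B cell and acinar groups were unlike between libraries. Barcodes rich in B cell markers (48 in WT and 57 in GKO), in which Jchain of antibody-secreting cells made up 15900 and 15300 CPM, had a family level of 7879 (7711 to 8049) in WT against 5284 (5112 to 5460) in GKO, the largest difference of any group. In WT 58.3% of them were cycling, by at least 5 UMIs over 10 genes of mitosis such as Mki67 and Top2a, against 19.3% in GKO. Without the cycling barcodes 20 and 46 remained, with levels of 5347 and 4315. In this group Mrpl12 had 237 CPM in WT and 124 in GKO, and Mrps28 71.1 and 31.1, against its direction in the 5 classes. Acinar-marker barcodes (52 and 35) had 2921 and 3879, and their own marker genes, mostly digestive enzymes, made up 24.3% and 11.5% of their UMIs.

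Both groups entered the genotype comparison of the nonendocrine class. Without them its summed log2 ratio was 0.05 (0.03 to 0.06) in place of 0.00, with 3 members higher past 1.2-fold (Mrps28, Mrpl27 and Mrpl13) and 3 lower (Mrpl44, Mrps5 and Mrpl52). The share of all genes without these groups is not given. Mrps5, the counterpart of bacterial S5, was lowest of the class with 43.0 CPM in WT and 32.3 in GKO, a log2 ratio of -0.41 (-0.57 to -0.26), and stayed at -0.40 without these barcodes. Mrpl44 had 27.9 and 22.6 and stayed at -0.30. Mrpl37 went from -0.28 to -0.16 and Mrpl12 from -0.22 to -0.11, with intervals that then held 0. Mrpl10 was above WT in the whole class with 20.5 and 23.9.

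Cycling barcodes had a higher family level in the hormone-led classes as well. In WT, 82 cycling insulin-led barcodes had 6141 CPM against 5244 in the other 2183, a log2 ratio of 0.23 (0.20 to 0.26), and in GKO 22 had 6012 against 5353. Glucagon-led barcodes had 5938 in 13 cycling ones against 4855 in WT, and 5769 in 11 against 4993 in GKO. In somatostatin-led barcodes 7 and 5 cycling ones had 6259 and 6273 against 5331 and 5357. In PP-led barcodes 4 and 7 had 4994 and 5539 against 4549 and 4634. The level was higher in cycling barcodes in all 8 classes and libraries, with every interval above 0, and it was so too with all UMIs and with the narrower total (log2 ratios of 0.15 to 0.51). The nuclear-encoded respiratory chain genes were higher in cycling barcodes in all 8 as well, by log2 ratios of 0.03 to 0.23. Cytosolic ribosomal proteins had no common direction, with log2 ratios between -0.30 and 0.18. The cells of a library are not replicates, and these intervals cover counting error of summed UMIs, not the spread between barcodes or mice. The level of the 4 cycling WT PP-led barcodes lay within the quartiles of all PP-led WT barcodes (4013 and 5200).

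Depth moved with this result. The cycling barcodes of the 4 classes together had medians of 20117 non-hormone UMIs in WT and 18387 in GKO, against 11036 and 9702. Other barcodes of at least the depth of the lower quartile of the cycling ones had levels of 5077 and 5026. All other barcodes had 5088 and 5087. These levels pool the 4 classes, which differ in level and depth, and the part of depth was not tested. Barcodes with a second hormone of at least 10% made up 3.77% and 4.44% of the cycling and 3.35% and 2.44% of the other barcodes.

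Single members were compared with the 4 hormone-led classes pooled. Of 63 members with at least 100 UMIs in cycling hormone-led barcodes, 44 were higher in both libraries and 6 lower in both. These are 69.8% and 9.52% of them, against 48.0% and 31.1% of 4859 genes with as many UMIs, the genes that define the cycling barcodes left out. Past 1.2-fold in both were 22 members higher (34.9%, against 25.1% of those genes) and 2 lower (3.17% against 9.82%). Mrpl18, which is also implicated in the import of 5S rRNA, stood highest with log2 ratios of 1.24 (1.03 to 1.45) in WT and 0.97 (0.56 to 1.36) in GKO. Mrpl49 had 0.76 and 1.03, Mrpl42 0.65 and 0.79 and Mrpl12 0.60 and 0.68. The lower ones were Mrpl41 with -0.53 and -0.58 and Mrpl38 with -0.34 and -0.52. Apart from Mrpl12, these genes were chosen after their values were seen. The mix of the pooled classes also differed. Insulin-led barcodes were 82 of 106 cycling and 2183 of 5338 other ones in WT, and 22 of 45 and 850 of 3896 in GKO. Mrpl38 was lowest and Mrpl42 highest in the insulin-led class in both libraries. The part of this mix in the members' ratios was not tested.

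**Figure D5:**
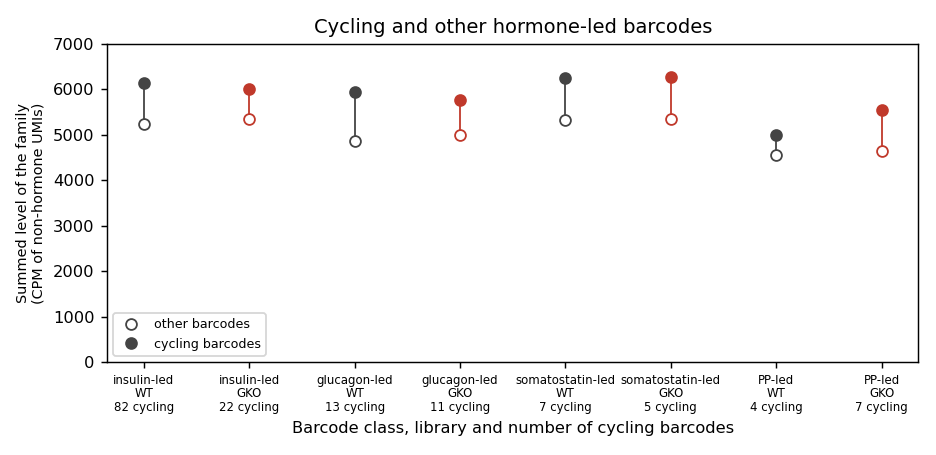
Summed level of the family in CPM of non-hormone UMIs in cycling (filled) and other (open) barcodes of each hormone-led class, WT in grey and GKO in red, with the number of cycling barcodes under each pair. The filled point lies above the open one in all 8 pairs, with the smallest gap in WT PP-led barcodes.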

How the data were processed

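The authors prepared droplet 3′ libraries (10x Genomics, v3.1 chemistry) and processed the reads with Cell Ranger against mm10; the matrix headers give version 5.0.1. The deposited values are counts (whole UMIs per gene and barcode, unnormalized), and GENCODE vM21 (mm10) was matched by Ensembl identifier for all 77 members. Total UMIs were 158067110 in WT and 103511757 in GKO. Barcodes with under 500 genes or over 10% mitochondrial UMIs were left out (692 and 943). No doublet caller was run and free RNA was not removed. UMIs were summed per library and class, and ratios were given exact 95% intervals (Poisson; conditional binomial for ratios; scipy 1.17.1), checked on simulated data. TMM factors (edgeR 4.0.16) served as an alternative scaling only. Lists of members lower or higher used 1.2-fold and at least 200 UMIs over both libraries in the class. The genes named were the 5 most and 5 least abundant members, the 3 largest rises and falls per class, the 5 with the largest range between classes and equal extremes in both libraries, Mrps18a, Mrps18b, Mrps18c, Mrpl12, Mrps36 and Mrpl52, and the extremes of each other list in the insulin-led class. Mrpl58, also in that rule, had no row, and 1 other gene is not reported here. Other genes were named after their values were seen. Members and lists were chosen with earlier results of these data known.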

Additional observations from a re-analysis of the deposited data

Results flagged for a closer look

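Data outside the comparisons carried the family too: the barcodes left out by the filters on genes and mitochondrial UMIs had 2306 CPM of member UMIs (over non-hormone UMIs) in WT (5915 UMIs in 692 barcodes) and 2934 in GKO (9121 UMIs in 943 barcodes). Both levels were below those of each class of kept barcodes.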

How the results depend on the processing

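The genotype ratios of the summed family level were near 0 under each alternative tried, between log2 -0.03 and 0.10, so their signs depended on the scaling. With TMM they were 0.00 (0.000953) in insulin-led, -0.0125 in glucagon-led, -0.0272 in somatostatin-led, -0.0127 in PP-led and 0.0187 in nonendocrine barcodes. With the total of all UMIs they were 0.0984 in insulin-led and 0.0503 in PP-led barcodes. Without hormone, mitochondrially encoded and cytosolic ribosomal protein UMIs in the total they were 0.00606 in glucagon-led and -0.0128 in nonendocrine barcodes. With no barcode filter they were -0.0106 in insulin-led and 0.0411 in nonendocrine barcodes. A leading hormone of at least 25% gave 0.0651 in glucagon-led and 0.0282 in somatostatin-led barcodes. The nonendocrine ratio was 0.0375 without 2-hormone and deepest barcodes, 0.0484 with equal weight of barcodes and 0.0461 without B cell and acinar marker barcodes (chosen after seeing the data, with 3 members higher). Leaving out the 18 shared barcodes, also chosen afterwards, moved no ratio beyond its interval.

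Against the insulin-led class, the total of all UMIs reversed the nonendocrine ratio from -0.31 to 1.01 and turned the glucagon-led, somatostatin-led and PP-led ratios to 0.764, 0.993 and 0.484, since it includes the hormones. The narrower total gave -0.0144, -0.0118 and -0.252 in that order, the last with Pyy in the total. With no barcode filter the ratios were -0.0900, 0.0236, -0.195 and, for nonendocrine, -0.353. A 25% hormone threshold gave -0.0642 (glucagon-led) and 0.0481 (somatostatin-led). Without 2-hormone and deepest barcodes the somatostatin-led ratio was 0.0225 and the nonendocrine one -0.352. Equal weight gave 0.0192 (somatostatin-led) and -0.189 (PP-led). The causes were not tested.

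At 1.5-fold the number of members was 0 in every class and direction. With all UMIs the insulin-led counts were 4 higher and 1 lower, the PP-led counts 6 and 1, and 1 nonendocrine member was higher. With TMM 5 were lower in insulin-led, 0 higher and 2 lower in glucagon-led, 1 and 2 in somatostatin-led, 1 and 5 in PP-led and 1 and 2 in nonendocrine barcodes. The shares of all genes under these alternatives are not given, so these counts are not compared with them. Named members kept their values within the counting interval, except Mrps21 in insulin-led barcodes with all UMIs (-0.19) and Mrpl12 in nonendocrine barcodes without the deepest (-0.06). No paired analysis was possible because each genotype had 1 library and no test was run. Depth limited members with few UMIs, such as Mrpl53.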
